A study of Mus musculus with 24 samples.

Results

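The circadian clock genes of mouse ventricle were followed across genotype and age in 24 hearts. Of the 10 genes listed (Arntl, Clock, Npas2, Per1, Per2, Per3, Nr1d1, Nr1d2, Dbp and Cry1), 8 had an array row that named 1 gene and were measured. They are 8 of the 18819 genes measured in this way. Both rows of Nr1d1 also name Thra, and the only row of Dbp also names Sphk2, so no level is given for these 2 genes. Nr1d2 had 2 rows, and the brighter was used, with a mean log2 signal of 8.04 against 2.58 for the other.

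RNA of ventricle tissue was hybridised to whole-transcript Affymetrix mouse arrays, with 6 hearts in each of 4 groups. The groups were newborn wild type (WT), newborn double knockout (KO), young WT and young KO hearts, all on a C57/Bl6 background. The sample annotation gives postnatal day 1 to 2 for newborn mice and day 30 for young mice, and the Methods give slightly different days. KO mice carry a deletion present in every tissue together with floxed alleles of another gene removed by Nkx2.5::Cre, which acts in the cardiac lineage, so that other cells of the ventricle could keep the floxed gene. Each group held both sexes, which are not given for each heart. Mice were kept on a light-dark cycle, and the hour at which hearts were taken is not given in the sources used here. A difference in the level of a clock gene and a difference in its daily phase therefore cannot be told apart in these data.

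The mammalian clock is a feedback loop of transcription that runs in nearly every cell, cardiomyocytes included. ARNTL (also called BMAL1) pairs with CLOCK or with its relative NPAS2 and binds E-box sequences to activate the Per and Cry genes, whose products PER and CRY then repress that pair. In a second loop the same pair activates the nuclear receptors Nr1d1 and Nr1d2 (REV-ERB), which repress Arntl through sites that the ROR receptors use to activate it. DBP and its relatives act through D-box sequences.

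Expression is given as the log2 of the RMA signal, on which 1 unit is a 2-fold change, and levels are compared between groups of 1 gene and never between genes. Each array correlated with its 5 group mates at a mean r of 0.986 or more. The 9 ventricular cardiomyocyte markers, among them Myl2, Tnnt2 and Ryr2, averaged 12.3 to 12.7 in every array. Their means were higher in young arrays (12.55 to 12.69) than in newborn arrays (12.26 to 12.47). Of the 9, only Ryr2 was called between genotypes. It was lower in young KO hearts (limma, log2 difference -0.24, adjusted p = 0.036), where 1.02% of all genes were called. The arrays labelled newborn WT replicate 4 and newborn KO replicate 4 stood apart from their groups. On 192 genes that differed between the genotypes in young hearts, none of them a clock gene, a score was made that would differ by 1 between genotypes if newborn hearts differed as young hearts do. It was 0.102 for newborn WT replicate 4 and -0.167 to 6.4e-05 for the other newborn WT arrays. For newborn KO replicate 4 it was -0.117, while the remaining newborn KO arrays ran from 0.0517 to 0.222. Both arrays thus lay on the side of the opposite genotype, and the newborn differences, spreads and list counts between genotypes are given with and without them.

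The DNA next to the start sites of the clock genes is shown because it carries the elements named above. RefSeq promoters of the GRCm38.p6 build, from 250 bases before to 50 after each start site, were found for 9 of the 10 genes (13 promoters), Per2 having no entry in the table used. Both strands were searched for CACGTG (E-box), CACGTT (a non-canonical E-box), TTATGTAA and TTACGTAA (D-boxes) and AGGTCA, the half-site of REV-ERB and ROR receptors. Below are the 250 bases before the first listed start site of the activator Arntl (chr7:113207215-113207464, plus strand), of the repressors Per1 (chr11:69098699-69098948, plus strand), Per3 (chr4:151044666-151044915, minus strand) and Cry1 (chr10:85185055-85185304, minus strand), read 5′ to 3′ toward the start, with matches on either strand in capitals.
Arntl: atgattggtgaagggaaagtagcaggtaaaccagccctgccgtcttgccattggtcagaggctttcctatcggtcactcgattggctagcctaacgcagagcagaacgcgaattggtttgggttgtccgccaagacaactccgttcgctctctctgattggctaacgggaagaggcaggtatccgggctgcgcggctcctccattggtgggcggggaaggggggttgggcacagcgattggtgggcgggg
Per1: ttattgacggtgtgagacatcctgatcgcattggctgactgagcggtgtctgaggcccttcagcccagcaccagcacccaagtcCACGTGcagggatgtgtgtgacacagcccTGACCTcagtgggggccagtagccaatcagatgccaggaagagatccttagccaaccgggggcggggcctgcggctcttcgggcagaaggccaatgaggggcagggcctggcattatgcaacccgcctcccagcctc
Per3: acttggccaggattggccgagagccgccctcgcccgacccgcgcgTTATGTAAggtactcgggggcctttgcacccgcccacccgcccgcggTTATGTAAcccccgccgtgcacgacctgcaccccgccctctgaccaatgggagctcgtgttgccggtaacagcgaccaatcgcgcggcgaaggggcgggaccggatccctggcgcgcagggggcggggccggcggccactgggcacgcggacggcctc
Cry1: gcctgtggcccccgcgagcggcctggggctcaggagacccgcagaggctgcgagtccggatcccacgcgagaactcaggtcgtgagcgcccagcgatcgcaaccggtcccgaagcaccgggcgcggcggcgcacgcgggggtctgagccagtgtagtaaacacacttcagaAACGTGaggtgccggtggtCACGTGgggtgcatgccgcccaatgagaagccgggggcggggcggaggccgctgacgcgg

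In the Per1 stretch an E-box began 166 bases before the start, followed by an AGGTCA read on the opposite strand 137 bases before it. Cry1 held an E-box 60 bases and a CACGTT, on the opposite strand, 79 bases before its start. The Per3 stretch held 2 copies of TTATGTAA, 205 and 158 bases before the start, and only 7 of 32851 promoters of the same length held at least 2. Single motifs were commoner, since CACGTG was present in 7.15% of those promoters, CACGTT in 4.68%, TTATGTAA in 0.938%, TTACGTAA in 0.119% and AGGTCA in 16.3%. The Arntl stretch printed above held none of the 5 motifs, but another listed Arntl start site had an AGGTCA 31 bases after it. A match describes the letters only.

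The first comparison asked how the clock genes differed between newborn and young hearts. In WT hearts, Arntl and Clock were higher and Per2 and Per3 lower in young than in newborn hearts, while Npas2, Per1, Nr1d2 and Cry1 did not pass the test (limma, adjusted p under 0.05 over 18819 genes). The same 4 genes passed in KO hearts, in the same directions. Maturation of the heart changes much of the transcriptome, and the share of clock genes called was near that background. Of all genes, 19.2% were called higher and 27.9% lower with age in WT hearts, and 34% higher and 25% lower in KO hearts, against 2 of 8 clock genes in each direction. The share of all genes called in each direction depends on scaling. Centring each array on its median moved the median age difference of all genes from 0.00 to 0.26 in WT and from 0.10 to 0.27 in KO hearts. It turned 3612 higher and 5242 lower genes into 9842 and 2989 in WT, and 6398 and 4712 into 10029 and 3011 in KO hearts. The directions of Arntl, Clock, Per2 and Per3 held under it and under a new quantile normalization.

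Arntl, the activator without which the loop stops, rose with age. In newborn WT hearts its log2 signal was at least 6.27, with a median of 6.45 and a highest value of 6.65, and in young WT hearts it ran from 7.37 through a median of 7.60 to 7.78. Every young WT array lay above every newborn WT array, with a gap of 0.72 between the groups. The difference was 1.12 ± 0.13 (SE), a 2.18-fold rise (adjusted p = 1.2e-07, n = 6 per group). In KO hearts Arntl ran from 6.23 through 6.38 to 6.67 in newborn and from 6.89 through 7.42 to 7.97 in young arrays. These groups did not overlap either, with a gap of 0.22, and the rise was 1.05 ± 0.13 (adjusted p = 4.0e-07). The rises of the genotypes differed by -0.07, with a 95% interval from -0.46 to 0.32.

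Clock, the partner of ARNTL, rose by a smaller amount. Newborn WT arrays ran from 8.77 through a median of 8.86 to 8.95 and young WT arrays from 8.98 through 9.10 to 9.33, so that only 0.025 separated the groups. The rise was 0.25 ± 0.059 in WT (1.19-fold, adjusted p = 0.00086). In KO hearts newborn values ran from 8.71 through 8.87 to 8.90 and young values from 9.16 through 9.27 to 9.32, a rise of 0.42 ± 0.059 (1.34-fold, adjusted p = 2.1e-06). Again no young array reached down to the newborn range. Npas2, which can stand in for CLOCK, was 8.47 ± 0.12 (SD, n = 6) and 8.58 ± 0.12 in newborn WT and KO hearts and 8.19 ± 0.29 and 8.35 ± 0.31 in young WT and KO hearts. Its age difference of -0.28 in WT (adjusted p = 0.069) and -0.23 in KO hearts (adjusted p = 0.12) did not pass the test. In WT it passed with array weights (adjusted p = 0.026) and when newborn WT replicate 2 (0.049), young WT replicate 2 (0.014), young KO replicate 3 (0.037) or young KO replicate 4 (0.045) was left out, and in KO when young KO replicate 4 was left out (0.029).

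**Figure D1:**
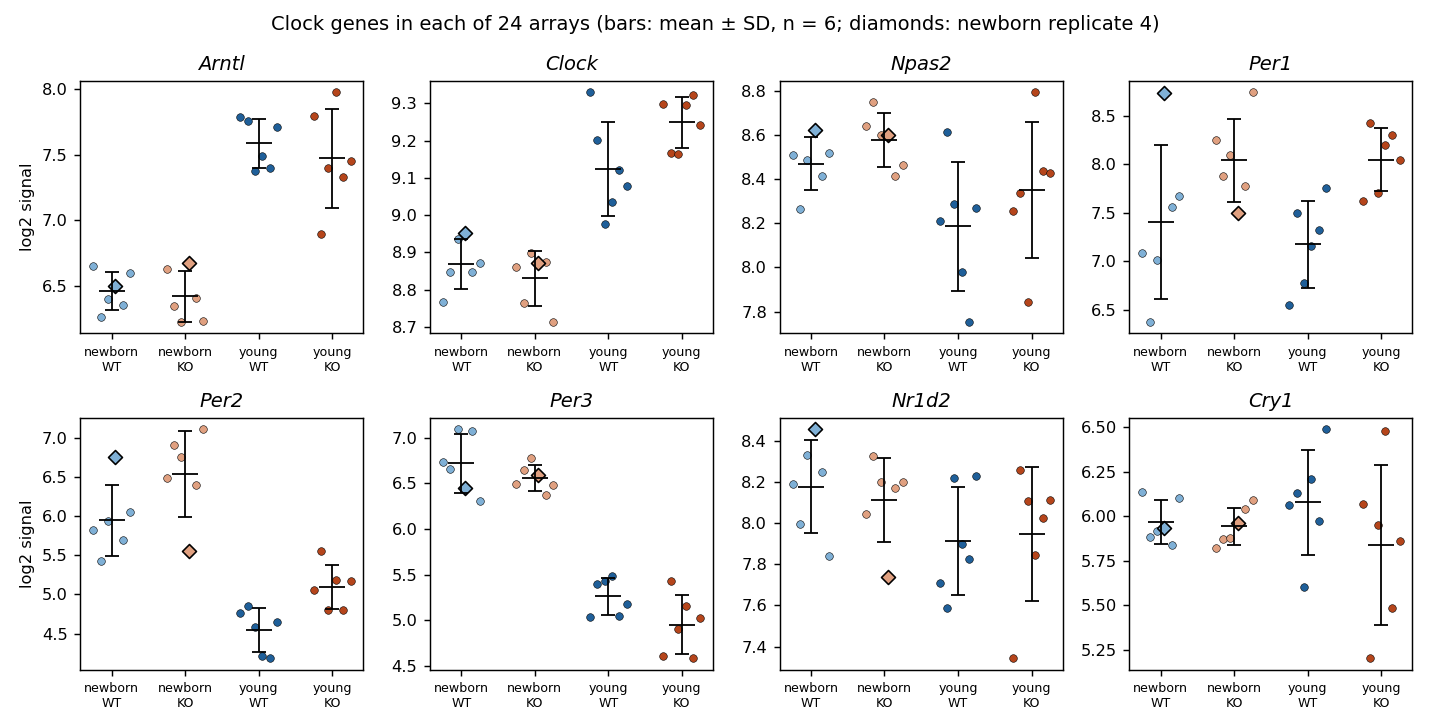
Log2 signal (vertical axis) of 8 clock genes in each array, by group (horizontal axis), with the mean and SD of 6 arrays in black and replicate 4 of both newborn groups as diamonds. In Arntl and Clock all young arrays lie above all newborn arrays of the same genotype, in Per3 all lie below, and in Per1 the 4 groups overlap.

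Per2 and Per3, repressors of the ARNTL and CLOCK pair, fell with age. Per3 ran from 6.30 through a median of 6.70 to 7.09 in newborn WT and from 5.04 through 5.29 to 5.48 in young WT arrays. No young value came within 0.82 of the lowest newborn value, and the level fell by 1.45 ± 0.14 (2.74-fold lower, adjusted p = 4.8e-09). In KO hearts Per3 ran from 6.37 through 6.54 to 6.78 in newborn and from 4.59 through 4.97 to 5.43 in young arrays, and it fell by 1.61 ± 0.14 (3.05-fold lower, adjusted p = 1.1e-09). Ordered by p over all genes, Per3 ranked 992 in WT and 611 in KO hearts, above every other clock gene. Its 2 D-boxes are in the stretch printed above.

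For Per2, newborn WT arrays ran from 5.42 through 5.88 to 6.75 and young WT arrays from 4.18 through 4.62 to 4.86. The groups were 0.57 apart, and Per2 fell by 1.40 ± 0.22 (2.65-fold lower, adjusted p = 6.3e-06). The lowest young WT value lay below the median signal of every young WT array. The effect of such dim signal on the size of the fall was not tested. In KO hearts Per2 ran from 5.56 through 6.62 to 7.11 in newborn and from 4.80 through 5.11 to 5.56 in young arrays, and fell by 1.44 ± 0.22 (2.71-fold lower, adjusted p = 5.4e-06). Here the groups touched, because newborn KO replicate 4 lay 0.0011 below young KO replicate 2. Without the newborn arrays numbered 4 the age calls of all 4 genes remained.

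Per1, the third period gene, did not follow them. Its level was 7.41 ± 0.79 in newborn and 7.18 ± 0.45 in young WT hearts, a difference of -0.23 with a 95% interval from -0.81 to 0.35 (adjusted p = 0.54). In KO hearts it was 8.04 ± 0.43 and 8.05 ± 0.32, a difference of 0.01 with an interval from -0.57 to 0.59 (adjusted p = 0.98). The sign of both differences changed with single arrays or scaling. Cry1, the cryptochrome that acts with PER, was 5.97 ± 0.12 and 5.94 ± 0.10 in newborn and 6.08 ± 0.29 and 5.84 ± 0.45 in young WT and KO hearts. With median centring its age difference in WT, 0.11 otherwise, became 0.37 and passed (adjusted p = 0.031). Nr1d2, the REV-ERB receptor that could be measured, was 8.18 ± 0.23 and 8.11 ± 0.21 in newborn and 7.91 ± 0.26 and 7.95 ± 0.33 in young WT and KO hearts. Its age differences of -0.27 and -0.16 had adjusted p-values of 0.13 and 0.32.

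Arrays were also compared without a test. Between ages in WT hearts, Arntl and Clock were higher in all 6 young arrays and Per2 and Per3 lower in all 6, where 11.5% and 18.2% of all genes were. In KO hearts Arntl and Clock were higher and Per3 alone lower in all 6, against 15.9% and 15.1% of all genes.

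**Figure D2:**
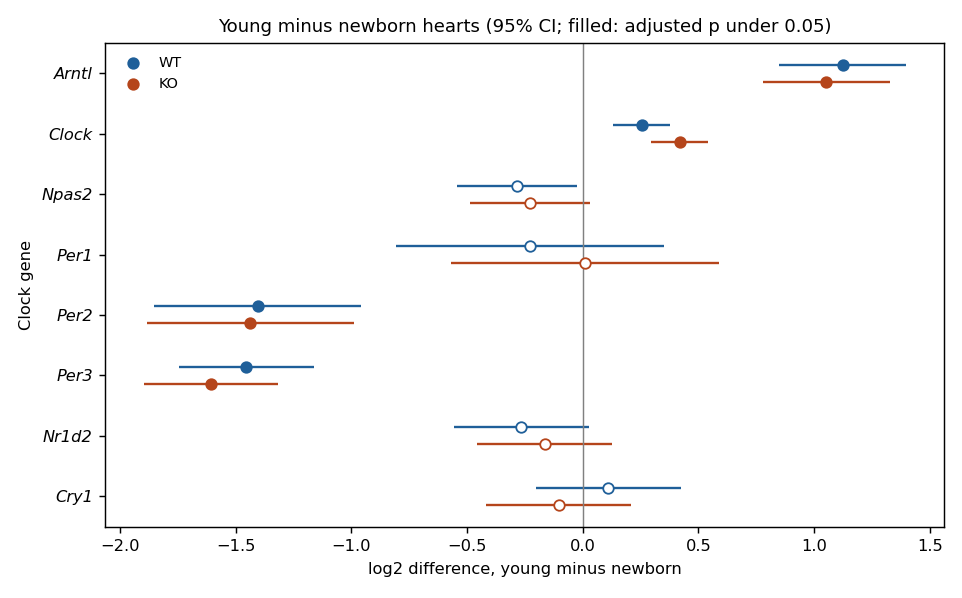
Log2 difference between young and newborn hearts (horizontal axis) for each clock gene (vertical axis), with 95% confidence intervals from limma, in WT (blue) and KO (red) hearts. Filled points passed the adjusted p threshold. Arntl and Clock lie to the right of 0, Per2 and Per3 near -1.5, and the intervals of the genotypes overlap for every gene.

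Cell types other than ventricular cardiomyocytes also changed with age. In bulk tissue, fewer cells of a type and less RNA per cell cannot be told apart. The mean of 7 fibroblast markers ran from 9.39 to 9.53 in newborn and 7.73 to 9.28 in young WT arrays, and 5 of the 7 fell. In KO hearts it ran from 9.16 to 9.71 and from 7.75 to 9.56, and 3 fell and 1 rose. All 5 leukocyte markers rose in both genotypes, with means of 6.13 to 6.75 in newborn and 7.01 to 7.57 in young arrays. The mean of 10 atrial markers ran from 7.82 to 9.47 in newborn and 6.19 to 9.42 in young WT arrays, and from 8.46 to 9.76 and 6.66 to 10.05 in KO arrays. Of 6 endothelial markers, 5 fell and 1 rose in WT hearts, and 2 fell and none rose in KO hearts. The part of these shifts in the age differences of the clock genes was not tested.

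The second comparison asked whether the double knockout changed the clock genes at either age. None of the 8 passed the test in newborn or in young hearts, where 0% and 1.02% of all genes did. The second share rests on few arrays and on the fit. With only the 12 young arrays fitted, 19 genes were called, and 8 when the atrial marker mean was added as a covariate. The 192 genes called in young hearts became 784 without young WT replicate 2, 806 without young KO replicate 3, 108, 112 and 125 without young WT replicates 1, 4 and 6, and 111 without young KO replicate 2. In newborn hearts 73 genes were called without WT replicate 4 and 49 without KO replicate 4. At an unadjusted p under 0.05 there were 2 clock genes in newborn hearts (Per1 and Per2, with 1707 of all genes) and 4 in young hearts (Per1, Per2, Per3 and Clock, with 2821 of all genes). Groups of 6 that did not overlap were found in 0.489% of all genes in newborn and 0.824% in young hearts, and for no clock gene.

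Per1 is an early-responding clock gene, switched on by glucocorticoids and by cAMP signals besides the E-box. Its newborn WT values for replicates 1 to 6 were 7.08, 6.38, 7.01, 8.73, 7.55 and 7.67, and those of newborn KO hearts were 8.25, 7.88, 8.10, 7.50, 7.77 and 8.74. Replicate 4 was the highest WT value and the lowest KO value. All 6 KO values exceeded the WT median, and the difference was 0.63 ± 0.28 (1.55-fold, adjusted p = 0.51). Without both arrays numbered 4 it was 1.01 (adjusted p = 0.025). Leaving out only the WT array gave 0.90 (adjusted p = 0.088) and only the KO array 0.74 (adjusted p = 0.30).

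For Per2 the newborn WT values were 5.82, 5.42, 5.94, 6.75, 5.69 and 6.05, and the newborn KO values 6.48, 6.90, 6.76, 5.56, 6.39 and 7.11. The arrays numbered 4 again lay at opposite ends of their groups. The difference of 0.59 ± 0.22 (adjusted p = 0.42) became 0.94 (adjusted p = 0.0029) without both, 0.75 (0.096) without the WT array and 0.78 (0.072) without the KO array. Per1 and Per2 were then the only clock genes called in newborn hearts, 2 of 8, where 2.56% of all genes were called. These 2 arrays were singled out with their signals known and for lying on the side of the opposite genotype. Calls made without them are not independent of that choice, and their labels could not be checked here.

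In young hearts the WT values of Per1 were 6.55, 7.49, 6.78, 7.16, 7.33 and 7.75, and the KO values 7.62, 8.42, 7.70, 8.20, 8.30 and 8.04. Of the KO arrays, 4 lay above every WT array and all 6 above the WT median. The difference was 0.87 ± 0.28 (1.83-fold, adjusted p = 0.13). Per2 in young WT hearts was 4.76, 4.86, 4.58, 4.22, 4.18 and 4.65, and in young KO hearts 5.05, 5.56, 4.80, 5.19, 4.80 and 5.18. Here too 4 KO arrays lay above every WT array, and the groups overlapped by only 0.058. The difference was 0.55 ± 0.22 (1.47-fold, adjusted p = 0.22). The WT values 4.22 and 4.18 lay below the median signal of every young WT array. Per2 was thus dim in young WT hearts, and the effect of this on the size of the difference was not tested.

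**Figure D3:**
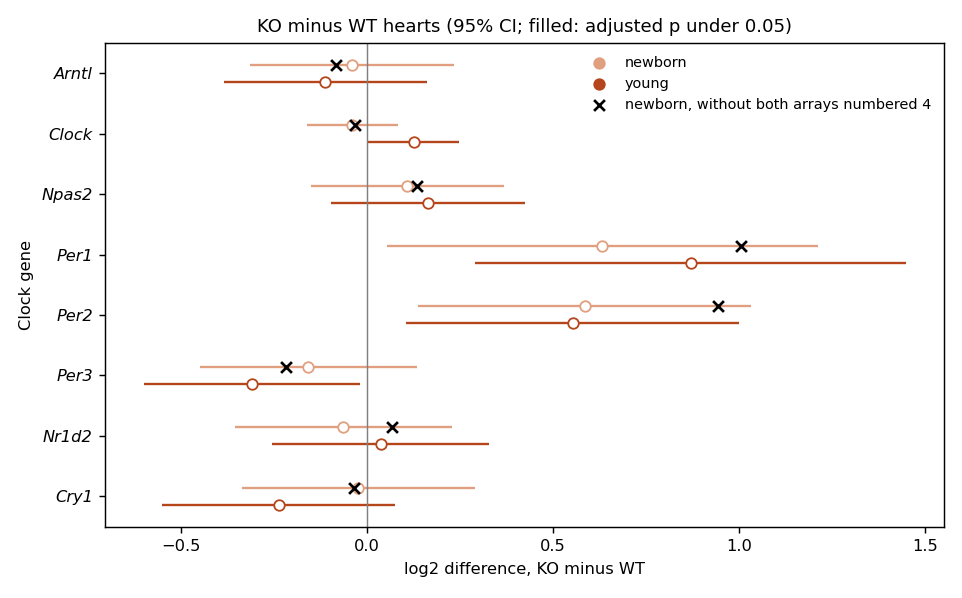
Log2 difference between KO and WT hearts (horizontal axis) for each clock gene (vertical axis), with 95% confidence intervals from limma, in newborn (light) and young (dark) hearts. Open points did not pass the adjusted p threshold, and crosses give the newborn difference without both arrays numbered 4, which is 1.01 for Per1 and 0.94 for Per2.

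The remaining clock genes differed less. Per3 in young hearts was 5.26 ± 0.20 in WT and 4.95 ± 0.32 in KO, with 4 KO arrays below every WT array, a difference of -0.31 (adjusted p = 0.30). In newborn hearts its difference was -0.16. Clock in young hearts was 9.12 ± 0.13 in WT and 9.25 ± 0.069 in KO, with a difference of 0.12 (adjusted p = 0.32). Arntl differed by -0.04 (95% interval -0.32 to 0.23) in newborn and -0.11 (-0.39 to 0.16) in young hearts, Npas2 by 0.11 and 0.16, Nr1d2 by -0.06 and 0.04, and Cry1 by -0.02 and -0.24. Their intervals all included 0. The sign changed under at least 1 setting for Nr1d2 at both ages, for Cry1 in newborn hearts and for Arntl and Npas2 in young hearts.

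Markers of other tissue moved with genotype in the young hearts. The 10 atrial markers averaged 6.19 to 9.42 in young WT arrays (median 6.56) and 6.66 to 10.05 in young KO arrays (median 9.03). No single marker passed the test, and 7 had an unadjusted p under 0.05, as did 2821 of 18819 genes in young hearts. The 4 smooth muscle markers averaged 6.90 to 9.22 (median 7.21) and 7.32 to 9.99 (median 9.54). The 7 fibroblast markers averaged 7.73 to 9.28 (median 8.20) and 7.75 to 9.56 (median 8.97), with a median difference of 0.55, and 5 of them had an unadjusted p under 0.05. The atrial marker mean was then added as a covariate in a fit of the 12 young arrays. The Per1 difference was 0.59 (adjusted p = 0.43) and the Per2 difference 0.44 (adjusted p = 0.50). In the main fit of all groups, without the covariate, they were 0.87 (adjusted p = 0.13) and 0.55 (adjusted p = 0.22). These fits also differ in the number of arrays. Without the covariate, the 12 young arrays alone gave 19 called genes, against 192 in the main fit. The adjusted p-values therefore do not show the effect of the covariate alone. In newborn hearts the atrial means overlapped (7.82 to 9.47 in WT, 8.46 to 9.76 in KO). The part of smooth muscle and fibroblasts in the young Per1 and Per2 values was not tested.

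Whether the effect of the knockout differed between ages was tested by the interaction. None of the 8 clock genes passed, and 0.0106% of all genes did (2 genes, and 79 without both newborn arrays numbered 4). The young minus newborn KO effect was 0.24 for Per1, with an interval from -0.58 to 1.06 (adjusted p = 0.83). For Per2 it was -0.03, from -0.67 to 0.60 (adjusted p = 0.97), and for Clock 0.16, from -0.01 to 0.34 (adjusted p = 0.41). Without both newborn arrays numbered 4 the value was -0.14 for Per1 (-0.82 to 0.55, adjusted p = 0.88) and -0.39 for Per2 (-0.85 to 0.070, adjusted p = 0.42). These intervals leave room for differences between ages of the size of the Per1 and Per2 effects themselves.

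Hearts of 1 group differed from each other far more in some clock genes than in others. The SD of Per1 among newborn WT hearts was 0.79, larger than that of 99.8% of all genes, and in the other groups it stood at the 96.0, 96.7 and 90.6 percentiles (in that order newborn KO and then young WT and KO). Per2 stood at the 98.8 and 97.5 percentiles in newborn WT and KO and at 86.1 and 85.4 in young WT and KO hearts. The newborn values rest in part on the arrays numbered 4. Without that array the SD of Per1 in newborn WT was 0.51 (99.6 percentile), and the SD of Per2 went from 0.45 to 0.24 in WT (91.7 percentile) and from 0.55 to 0.30 in KO hearts (91.8 percentile). Clock was at the other end, with SDs of 0.067, 0.073, 0.13 and 0.069 and percentiles of 5.65, 12.7, 29.9 and 3.03. In young KO hearts Cry1 reached the 96.5 percentile and Arntl the 94.1. In newborn WT, newborn KO and young WT hearts Arntl stood at 52.9, 77.6 and 59.8, and Cry1 at 36.3, 32.9 and 87.8. The cause of these spreads was not tested. Leaving out 1 array moved the SD by over 1.5 times in 3 further sets, Npas2 in newborn WT (0.076 without replicate 2) and Nr1d2 in newborn KO (0.10 without replicate 4) and young KO (0.15 without replicate 1). The median SD of all genes lay between 0.13 and 0.18 in the 4 groups.

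In the 32 sets of 6 arrays (8 genes in 4 groups), no single value passed Dixon's test for an outlier. Some hearts lay at the end of their group in several genes. Young KO replicate 2 was the lowest of its group in Arntl (6.89) and Cry1 (5.20) and the highest in Per1 (8.42), Per2 (5.56), Per3 (5.43) and Nr1d2 (8.26). It also had the highest atrial marker mean of its group (10.05). Without it the SDs of Arntl, Cry1 and Per2 in young KO hearts went from 0.38 to 0.28, from 0.45 to 0.36 and from 0.28 to 0.19. Young KO replicate 4 showed the reverse for the first pair, being the highest in Arntl (7.97) and Cry1 (6.48), and it was also the highest in Npas2 (8.79). Newborn WT replicate 4 was the highest of its group in 5 of the 8 genes, and newborn WT replicate 2 the lowest in 4.

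**Figure D4:**
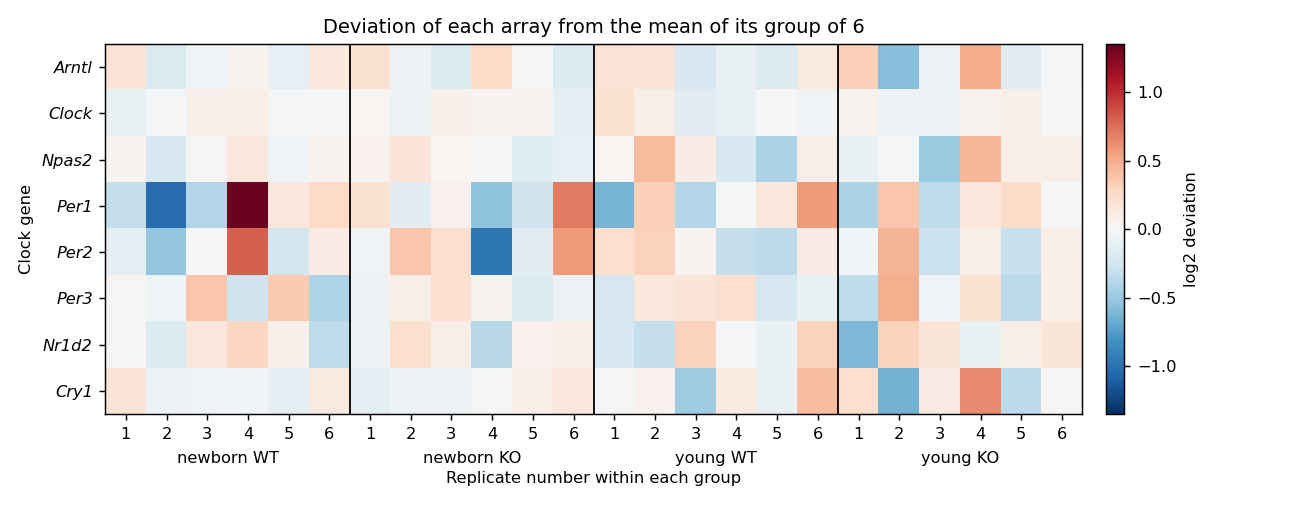
Deviation of each array (columns, by group and replicate number) from the mean of its group in each clock gene (rows), on the log2 scale given by the color bar. Per1 and Per2 lie above the group mean in newborn WT replicate 4 and below it in newborn KO replicate 4, and young KO replicate 2 has low Arntl and Cry1 beside high Per1, Per2, Per3 and Nr1d2.

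How pairs of clock genes moved together among hearts of 1 group was examined in 4 pairs and 4 groups, 16 correlations over 6 arrays each, with exact two-sided permutation tests. The pairs Arntl with Per2 and Arntl with Npas2 were planned, and Per1 with Per2 and Arntl with Cry1 were chosen after the data were seen. None passed after adjustment over the 16, and the smallest adjusted p was 0.067. Arntl and Cry1 had r = 0.91 (exact p = 0.013) and rho = 0.94 (exact p = 0.017) in newborn WT, and r = 0.95 (exact p = 0.011) and rho = 0.94 (exact p = 0.017) in young KO hearts. Leaving out the 2 arrays farthest from the median of Arntl gave r = 0.95 and r = 0.73. In young WT hearts r was 0.61 (exact p = 0.21) and in newborn KO hearts -0.31 (exact p = 0.51). The correlation was thus above 0 in 3 of 4 groups and passed the adjusted threshold in none.

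Per1 and Per2 had r = 0.92 in newborn WT (exact p = 0.017, rho = 0.77, exact p = 0.10) and r = 0.78 in newborn KO hearts (exact p = 0.074, rho = 0.77). Without the 2 arrays farthest from the median of Per1 these became 0.094 and -0.0096, so both rest on those arrays. In young hearts r was -0.056 in WT and 0.50 in KO (exact p = 0.90 and 0.33). Arntl and Per2, activator and target, had r = -0.83 in newborn KO (exact p = 0.015, rho = -0.77, exact p = 0.10, and -0.71 without the 2 farthest arrays). In the other groups r was 0.45, 0.77 and -0.32 (newborn WT, young WT and young KO), so no direction was shared. Arntl and Npas2, both activators, had r between 0.20 and 0.73, with exact p-values of 0.093 to 0.68.

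Over all 24 arrays, after the mean of each group was removed, Arntl had r = 0.75 with Cry1, 0.44 with Clock, 0.43 with Npas2 and -0.58 with Nr1d2. With Per1, Per2 and Per3 it had r = -0.08, -0.13 and -0.34. Per1 had r = 0.64 with Per2. These values describe 24 arrays that share groups and normalization. Among 8636 genes with a mean log2 signal of at least 6, the 5 most like Arntl on this measure were Atxn2 (r = 0.80), Ints13 (0.80), Aqr (0.79), Tex261 (0.78) and Med1 (0.76). The 5 most like Per1, examined in place of Dbp after the data were seen, were Zswim8 (0.87), Klf6 (0.85), Irf2bp2 (0.80), Jund (0.79) and Jdp2 (0.76). Klf6, Jund and Jdp2 encode transcription factors, and Jund is a member of the AP-1 family. These pooled correlations and rankings include the newborn WT and newborn KO arrays that stood apart from their groups. Per1 and Per2 deviated from the group mean by 1.32 and 0.81 in that WT array and by -0.54 and -0.98 in that KO array. The correlations and rankings were not computed without these arrays, so how far they rest on them was not tested.

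**Figure D5:**
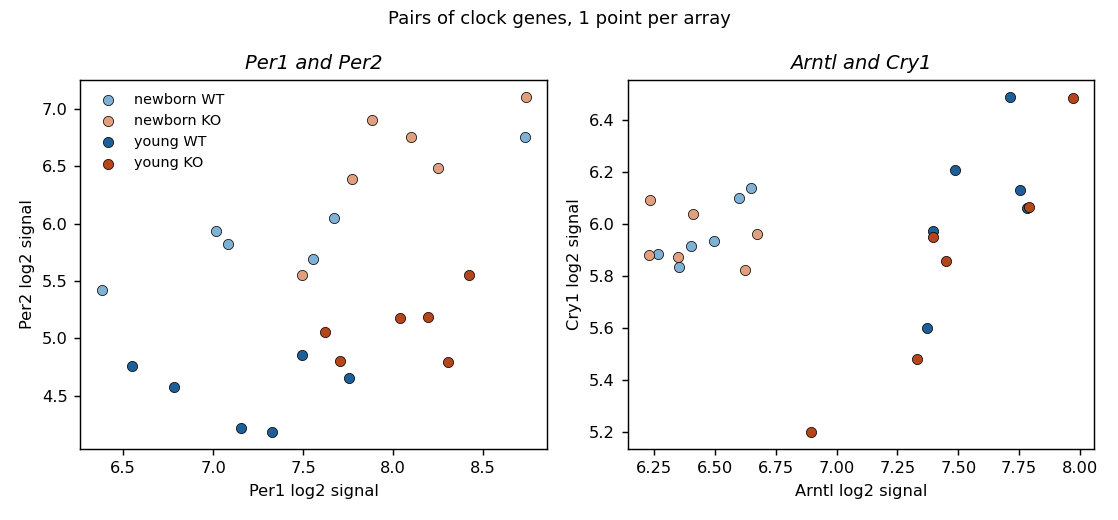
Log2 signals of Per1 (horizontal) and Per2 (vertical) on the left and of Arntl (horizontal) and Cry1 (vertical) on the right, with 1 point per array colored by group. Most young arrays lie below the newborn arrays in Per2, all lie to the right of them in Arntl, and the young array lowest in Arntl is also the lowest in Cry1.

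Genes of the wider clock machinery were called with age in both genotypes, and none was called between genotypes with all arrays. Of 18 modulators of the loop, 16 were measured, of which 4 rose and 5 fell with age in WT hearts and 4 rose and 6 fell in KO hearts. These shares were near those of all genes (19.2% higher and 27.9% lower in WT, 34% and 25% in KO). The median difference was -0.06 in WT against 0.00 over all genes, and -0.12 in KO against 0.10. Csnk1e and Csnk1d, the casein kinases that mark PER proteins for degradation, both fell. Csnk1e went from a median of 10.33 (range 10.08 to 10.43) in newborn WT to 9.43 (9.38 to 9.52) in young WT hearts, a fall with no overlap (log2 difference -0.85, adjusted p = 3.8e-11). Csnk1d differed by -0.54 (adjusted p = 2.8e-08). Nono, a PER-binding nuclear protein, went from 10.63 (10.52 to 10.71) to 9.48 (9.39 to 9.68) and fell by 1.11 (adjusted p = 4.0e-13). Bhlhe41, which competes for E-boxes, went from 7.22 (6.87 to 7.34) to 7.85 (7.68 to 7.97), a rise of 0.67 (adjusted p = 3.0e-05). Between genotypes none of the 16 passed. At an unadjusted p under 0.05 there were 3 in newborn and 4 in young hearts, with 1707 and 2821 of 18819 genes. Without both newborn arrays numbered 4, Ciart and Timeless passed in newborn hearts, 1 in each direction, where 2.56% of all genes were called. Neither call is independent of the choice of those arrays. Of the D-box factors, Hlf, a relative of DBP, fell with age by 0.27 in WT (adjusted p = 0.027) and by 0.51 in KO hearts (adjusted p = 0.00011). Tef, another relative, rose by 0.21 in KO hearts (adjusted p = 0.023) and did not pass in WT hearts, and the interaction did not pass. Of these age calls, only that of Hlf in KO hearts remained without both newborn arrays numbered 4. Nfil3, which represses at the same element, did not pass.

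Genes known to run under the clock in heart changed with age in both directions. Of 14 listed, 12 were measured, of which 6 rose and 3 fell in WT and 9 rose and 2 fell in KO hearts, with median differences of 0.63 and 0.79 against 0.00 and 0.10 over all genes. Of all genes, 19.2% were called higher and 27.9% lower in WT and 34% and 25% in KO hearts. Kcnd2, a potassium channel subunit, went from 6.72 (6.53 to 7.11) in newborn WT to 9.26 (8.92 to 9.50) in young WT hearts, a rise of 2.42 (adjusted p = 1.2e-14). Dgat2, which makes triglyceride, rose by 1.48 (adjusted p = 2.2e-15), Nampt, an enzyme of NAD synthesis, by 1.39 (1.3e-12) and Tcap, a sarcomere protein, by 1.5 (2.3e-11). The 3 that fell in WT hearts were Wee1, a kinase that delays mitosis (log2 difference -1.47), Ucp3, a mitochondrial uncoupling protein (-1.17), and Kcnh2, a potassium channel (-0.46), which are named to complete the count. Many of these genes belong to the mature cardiomyocyte, and the part of the clock in their change was not tested. Between genotypes, 0 passed in newborn and 1 in young hearts, where 1.02% of all genes did. Klf15 and Cdkn1a were called higher in newborn KO hearts without both arrays numbered 4, with 2.56% of all genes called. Those arrays were left out for their side on a genotype score, and Cdkn1a was among its genes. Neither newborn call is independent of leaving them out. The gene called in young hearts, Cdkn1a, a cell cycle inhibitor, ran from 8.86 through 9.35 to 9.67 in young WT and from 9.99 through 10.18 to 10.52 in young KO arrays. All KO arrays lay above all WT arrays, with a rise of 0.94 (adjusted p = 0.012).

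Because Per1 responds to glucocorticoids, 10 other genes with that property were examined. None passed in newborn KO against WT hearts, with a median difference of 0.30 against -0.05 over all genes. Of the 10, 4 had an unadjusted p under 0.05, as did 1707 of 18819 genes. Without both newborn arrays numbered 4 the median was 0.51 against -0.06, and Sgk1, Zbtb16, Klf9, Mt1 and Mt2 rose, 5 of 10 against 2.56% of all genes called. Mt2 and Errfi1 were among the genes of the score by which those arrays stood apart. The arrays were left out for their side on that score, and calls over all genes went from 0 to 482 without them. Neither the median nor any of the 5 calls is therefore independent of leaving them out. In young hearts 2 rose, where 1.02% of all genes were called, and 8 of 10 had an unadjusted p under 0.05, as did 2821 of 18819 genes, with a median difference of 0.42 against 0.03 over all genes. Errfi1, an inhibitor of EGF receptor signaling, ran from 8.26 through 8.54 to 8.93 in young WT and from 8.96 through 9.12 to 9.75 in young KO arrays, without overlap (log2 difference 0.63, adjusted p = 0.0078). Mt2, a metallothionein, ran from 8.18 through 8.52 to 9.07 and from 8.90 through 9.24 to 9.93, with overlap (0.84, adjusted p = 0.036). Ddit4, an inhibitor of mTOR signaling, was 8.52 ± 0.28 in WT and 9.13 ± 0.30 in KO hearts, a difference of 0.61 (adjusted p = 0.074). Fkbp5, which binds the glucocorticoid receptor complex, was 5.23 ± 0.29 in WT and 6.15 ± 0.52 in KO hearts, a difference of 0.92 (adjusted p = 0.092). All 10 KO differences were above 0 in young hearts, in the arrays whose atrial marker means are given above, and the part of those markers here was not tested.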

How the data were processed

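The authors deposited log2 signals computed by RMA, a method that corrects background, equalises the arrays and summarises the probes of a transcript. The submitters' processing notes name oligo 1.22, limma 3.14 and R 2.15. Because RMA equalises arrays, a shift of all genes at once is not measurable, and the number of arrays limits the precision. Rows were named from the platform's probe annotation, and 35017 probe sets held 21118 with 1 gene, 1735 with several and 12164 with none. The brightest probe set stood for each of 18819 genes.

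Differences were tested with limma 3.58.1 in R 4.3.3, with 1 mean per group over 24 arrays, 20 residual degrees of freedom and Benjamini-Hochberg adjustment over all genes, at an adjusted p under 0.05. Every adjusted p-value is limma's unless a permutation test is named. Within-group correlations were tested by exact permutation in Python with numpy. The fit and the permutation test were tested on simulated data. Planned pairs with Nr1d1 and Dbp were not run. Scan dates and batches are not given in the sources used here, and sex was not modelled.

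The clock genes, lists and tests were chosen with earlier results of these data known. All listed clock genes are described, up to 4 genes of each other list are named by smallest p (others where they complete a count), and the 5 genes most like Arntl and Per1 are named. Alternatives were a filter on dim genes (30th percentile), an adjusted p under 0.01, a fold change of at least 1.5, median centring, quantile normalization, a variance trend, array weights, a replicate block, the mean of all probe sets, only 12 arrays, an atrial marker covariate and leaving out arrays. The genes targeted in the KO mice are not reported here, so the genotype labels were not checked on them.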

Additional observations from a re-analysis of the deposited data

How the results depend on the processing

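The 4 age calls (Arntl, Clock, Per2 and Per3) kept direction and threshold in both genotypes under all alternatives, except that Clock fell short of a 1.5-fold change, which left 3 calls in each genotype. Leaving out 1 array gave 4 to 5 clock genes called with age in each genotype and 0 between genotypes or for the difference between KO effects. Without both newborn arrays numbered 4, 2 were called between newborn genotypes. Signs changed only in differences that did not pass in either setting. With median centring these were Nr1d2 between young genotypes (-0.032), Per1 with age in WT (0.029), and Nr1d2 (0.0090) and Cry1 (0.070) with age in KO. New quantile normalization turned Cry1 between newborn genotypes (7.23e-05) and with age in KO (0.060). Array weights turned Nr1d2 between young genotypes (-0.042), the mean of all probe sets turned Nr1d2 with age in KO (0.14), and the atrial covariate turned Npas2 between young genotypes (-0.0081). Without both newborn arrays numbered 4, Nr1d2 between newborn genotypes (0.067), the Per1 difference between KO effects (-0.14) and Per1 with age in WT (0.036) and KO (-0.099) turned. The Nr1d2 difference between KO effects also turned there, from 0.10 to -0.030. Under the other alternatives, signs of differences between KO effects were followed for Per1, Per2 and Clock only. Leaving out 1 array gave ranges for Cry1 between newborn genotypes of -0.053 to 0.0097, Nr1d2 between newborn genotypes of -0.13 to 0.011, Arntl and Nr1d2 between young genotypes of -0.21 to 0.0036 and -0.028 to 0.16, Per1 with age of -0.43 to 0.036 in WT and -0.099 to 0.15 in KO, Cry1 with age in KO of -0.23 to 0.024, and the difference between KO effects of -0.027 to 0.44 for Per1 and -0.23 to 0.082 for Per2. The cause of these changes was not tested. With array weights Npas2 with age in WT passed (adjusted p = 0.026). Among young genotypes, all genes called went from 126 higher and 66 lower to 74 and 105 with median centring and 114 and 161 with quantile normalization.

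Same-numbered arrays of different groups had deviations that correlated from -0.44 to 0.64, with 15 of 36 above 0.1. Of 24 arrays, 8 correlated best with their own number. No chance level was computed for these figures, so they do not decide whether the numbers mark pairs. The labels name no pairs, and the main fit used none. With a replicate block the counts of clock genes called were unchanged, and the adjusted p of Per1 between young genotypes was 0.12. The mean of all probe sets could change only Nr1d2, the clock gene with 2 rows, whose SD became 0.11 in newborn KO and 0.16 in young WT hearts. Leaving out 1 array, added after the data were seen, left 186 of 192 SDs within 1.5 times. No correlation changed its side of the threshold or its sign with median centring.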
